A study of Mus musculus with 6 samples.

Results

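Dppa2 peaks at pseudogene start sites are the subject here: the 237 of 3336 listed V5-Dppa2 peaks (7.10%, 95% interval 6.26 to 8.03%) whose midpoint lay closer to a transcription start site (TSS) of an annotated pseudogene than to the TSS of any other gene. The members were found by this rule in the GENCODE M1 annotation of the mouse genome build mm9, and no peak score entered the choice. The ChIP-seq experiment used CGR8, a mouse embryonic stem cell line grown without feeder cells, in which a stably selected clone expressed Dppa2 with a V5 tag at its N terminus from a pPyCAG vector, so the protein was present in addition to the endogenous one and not at its natural level. The same anti-V5 ChIP in parental CGR8 cells, which lack the vector, was the control. There was 1 library of each, so neither an error between replicates nor a test between conditions can be given, and the depth is unknown. The 5 other samples of the series, the control and 4 histone modification ChIPs, were not analysed here. All intervals are exact Clopper-Pearson intervals and cover counting error only.

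Pseudogenes are gene copies that no longer encode the full product of the gene they come from. Processed pseudogenes, or retrocopies, arise when a messenger RNA is reverse transcribed and inserted elsewhere in the genome, so they lack introns and usually lack the promoter of the source gene. Unprocessed pseudogenes come from duplication of a genomic segment and can carry the promoter along, and a polymorphic pseudogene is intact in some strains or individuals and disabled in others. In vertebrate genomes, cytosines in CpG dinucleotides are often methylated and mutate readily to thymine, so that old copies tend to lose CpGs, turning them into TpG or CpA. Dppa2 is a protein of pluripotent cells with a SAP domain, which binds DNA. Highly expressed genes such as those for ribosomal proteins have left many retrocopies in the mouse genome.

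Copies of Rps2, which encodes a protein of the small ribosomal subunit, were the largest group of members by best-matching coding gene, and their sequences are shown because copies with and without a peak differed in CpGs. The first line below is bases 33 to 152 of the coding sequence of Rps2 (chr17:24855061-24858874, plus strand), the stretch of 120 bases with the most CpGs that could be aligned in every copy shown. The next 3 lines are the highest-scoring copies with a peak, and the last 3 are the copies without a peak that are closest to Rps2, all chosen among copies aligned over nearly the whole coding sequence. The copies are Gm5786 (chr12:60182038-60182157, plus strand), Rps2-ps13 (chrX:50251797-50251916, plus strand), Gm12366 (chr4:35150073-35150192, minus strand), Gm12176 (chr11:47354966-47355087, plus strand), Gm7222 (chrX:131363443-131363567, minus strand) and Gm15653 (chr5:73868432-73868560, minus strand), and each stretch lies wholly in an annotated exon of the pseudogene. Sequences are from mm9, run 5′ to 3′ on the strand of the gene, and have CpG dinucleotides in capitals.
Rps2 coding sequence: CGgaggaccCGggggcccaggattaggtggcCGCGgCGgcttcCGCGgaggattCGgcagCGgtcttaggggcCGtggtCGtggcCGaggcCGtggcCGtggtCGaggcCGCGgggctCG
Gm5786, with a peak: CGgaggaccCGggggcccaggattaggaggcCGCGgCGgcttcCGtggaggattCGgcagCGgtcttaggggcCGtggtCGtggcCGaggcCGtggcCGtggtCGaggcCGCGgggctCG
Rps2-ps13, with a peak: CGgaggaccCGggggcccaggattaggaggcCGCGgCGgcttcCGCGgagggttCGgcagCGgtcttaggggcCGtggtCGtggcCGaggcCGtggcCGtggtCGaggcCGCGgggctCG
Gm12366, with a peak: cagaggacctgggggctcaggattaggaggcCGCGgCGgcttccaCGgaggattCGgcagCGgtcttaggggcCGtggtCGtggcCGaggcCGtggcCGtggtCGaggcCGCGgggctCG
Gm12176, without a peak: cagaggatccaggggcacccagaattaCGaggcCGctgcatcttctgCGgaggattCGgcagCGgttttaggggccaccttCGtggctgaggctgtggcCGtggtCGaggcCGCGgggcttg
Gm7222, without a peak: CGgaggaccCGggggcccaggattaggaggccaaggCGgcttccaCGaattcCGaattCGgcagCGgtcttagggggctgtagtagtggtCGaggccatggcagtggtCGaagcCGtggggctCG
Gm15653, without a peak: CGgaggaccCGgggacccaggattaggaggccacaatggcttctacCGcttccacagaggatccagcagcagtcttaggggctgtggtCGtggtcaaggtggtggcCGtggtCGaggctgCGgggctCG
This stretch of Rps2 held 18 CpGs. Gm5786 held 17, Rps2-ps13 held 18 and Gm12366 held 15, whereas Gm12176 held 10, Gm7222 held 11 and Gm15653 held 8.

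Sequences at the centres of 3 further peaks show how unlike each other the members were. Gm13697 (chr2:83824702-83824801, plus strand) stands for a tandem array of identical copies, and its peak centre lies upstream of the pseudogene. Kbtbd13 (chr9:65238683-65238782, minus strand) is the highest-scoring member in sequence that occurs only once in the genome, and its stretch is exonic. Gm13034 (chr4:146034896-146034995, plus strand) is the highest-scoring copy of Smarca5, and its stretch spans the annotated start, with 71 of 100 bases in exon sequence. CpGs are again in capitals.
Gm13697: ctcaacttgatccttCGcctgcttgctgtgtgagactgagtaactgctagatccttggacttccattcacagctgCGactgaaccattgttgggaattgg
Kbtbd13: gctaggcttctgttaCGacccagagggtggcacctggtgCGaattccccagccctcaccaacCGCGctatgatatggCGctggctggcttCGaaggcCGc
Gm13034: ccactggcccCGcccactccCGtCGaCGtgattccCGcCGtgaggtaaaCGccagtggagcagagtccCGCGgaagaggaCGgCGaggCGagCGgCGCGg
The stretch at Gm13697 held 2 CpGs, that at Kbtbd13 held 7 and that at Gm13034 held 15.

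Most of the pseudogenes were retrocopies. Of the 237 members, 167 were nearest to a transcript that the annotation types as processed or retrotransposed, 19 to an unprocessed one, 50 to a pseudogene transcript with no further class and 1 to a polymorphic pseudogene, Cdk3-ps. How all annotated pseudogenes divide among these classes was not counted, so these counts may reflect the make-up of the annotation. Each peak had a pseudogene of its own, so that the 237 peaks belonged to 237 genes. The 2882 peaks nearest to protein-coding genes and the 216 nearest to genes for non-coding RNA serve as comparison here.

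The assignment to a pseudogene was usually clear, but annotations differ on some of these genes. The nearest TSS of a gene that is no pseudogene was less than 100 bp farther away than the pseudogene TSS in 13 members, and in 1 of them, Gm11554, a pseudogene and a coding gene of the same name had equal distances. A protein-coding TSS lay within 1 kb of the midpoint in 19 members (8.02%, 4.90 to 12.2%), and 12 of these 19 coding genes carried the same name as the pseudogene, among them all 7 genes of the tandem array described below. By symbol or synonym, 203 of the 237 names were found in RefSeq annotation of GRCm38.p6, a later build. There, 18 of them are listed as protein-coding, among them Kbtbd13, Abl1, Cebpd, Kctd12, Rassf10 and Tmem185b, so the mm9 annotation and the later one do not give these names the same type. The match is by name, and for 5 of the 18, Abl1, Gm11554, Pcdh15, Krtap4-9 and 2010109K11Rik, the name is also that of a coding gene in the mm9 annotation, to which it may refer.

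The median score was higher at pseudogenes than in the rest of the list. The score, −10 times the log10 of a MACS p-value for ChIP over control, measures how far a peak stands above the control and not how much protein is bound. The median was 313 for the 237 members (interquartile range 191 to 495), 222 for peaks at protein-coding genes (153 to 337) and 262 for peaks at non-coding RNA genes (169 to 403). A score of at least 200, or a p-value of 1e-20, was reached by 170 members or 71.7% (65.5 to 77.4%), beside 59.3% of all peaks. Among the 10% of peaks with the highest scores were 51 members, which is 21.5% (16.5 to 27.3%) of members, and 251 or 8.71% (7.70 to 9.80%) of peaks at protein-coding genes. The interquartile ranges overlapped widely, and with 1 library none of these differences was tested against replicate error.

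**Figure D1:**
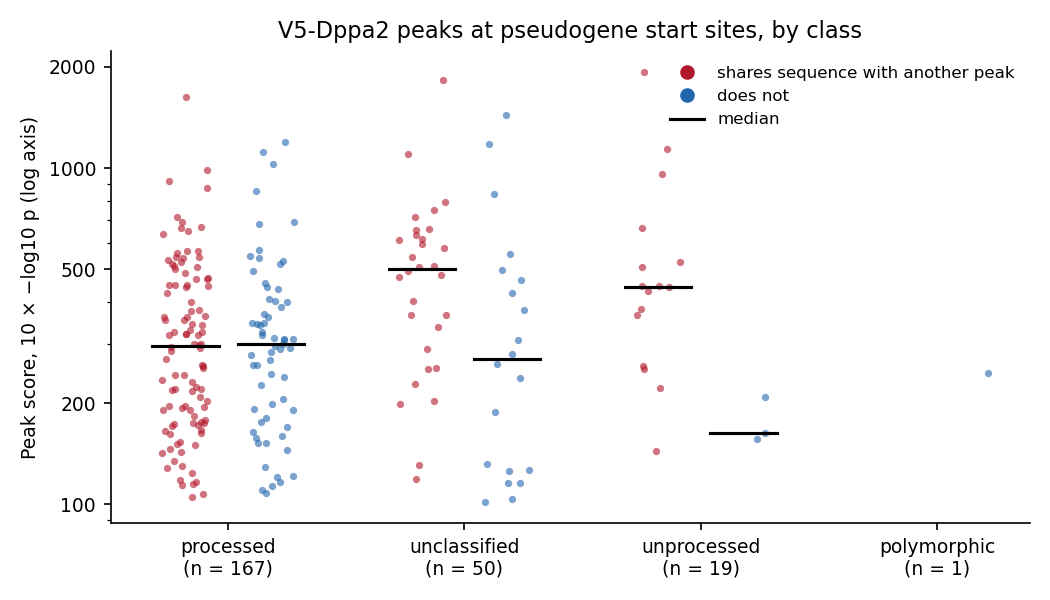
Score of each of the 237 peaks at pseudogene start sites (log axis) by annotated class of the pseudogene, split into peaks that share sequence with another listed peak (red) and those that do not (blue), with medians as black lines where there are more than 2 peaks. Processed pseudogenes had like medians with and without shared sequence, 296 and 300, whereas the unclassified and unprocessed ones had higher medians with shared sequence.

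Within the classes, the median score was 299 for the 167 processed pseudogenes, 414 for the 50 unclassified ones and 431 for the 19 unprocessed ones. Sequence counted as shared where 2 peaks matched over 300 bp or more with an identity of 85% or higher. The processed class differed little by shared sequence, with a median of 296 in the 104 peaks that share sequence with another peak and 300 in the 63 that do not. In the unclassified pseudogenes the medians were 502 for 30 peaks that share sequence and 271 for 20 that do not, and in the unprocessed ones 444 for 16 and 163 for 3. Among the 30 are the 7 peaks of the tandem array described below, with scores from 495 to 656. Among the 16 are neighbouring copies of Asap2 on chromosome 12, so neither set consists of independent peaks. The scores ranged over the same values in both parts of the processed class, from 105 to 1623 with shared sequence and from 108 to 1196 without.

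The 20 highest-scoring members lay between rank 6 and rank 131 of all peaks, and 13 of them shared sequence with another peak. Gm20523 led with a score of 1929, followed by Gm10780 with 1835 and Olfr268-ps1, a disabled olfactory receptor gene, with 1623. In these 3 peaks between 89.2% and 93% of the 36-mers, the sequence windows of the length of the alignment seed, occurred more than once in mm9. The fourth, Kbtbd13, a gene of the BTB and kelch repeat family, scored 1436 and had no repeated 36-mer.

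The next members by score were Gm12623 with 1196, whose best coding match is the poly(A)-binding protein gene Pabpc4, Abl1 with 1183, and Gm13768 with 1143. The member named Abl1 is a second gene of that name, typed as a pseudogene, whose peak lies in an exon of the coding Abl1, the tyrosine kinase gene, 4259 bp from the nearest coding TSS. Gm12282 scored 1113, Gm11554 scored 1105 and Gm16589 scored 1029. The remaining 10 of the 20 were Gm4604 and Gm13611, both copies of the ribosomal protein gene Rpl36, with 988 and 873, Gm5843 with 960, Gm5067 with 915, Fam48b1 with 853, Gm13294 with 838, Gm6435 with 791, Rps2-ps10 with 750, Gm5786 with 717 and Gm14782 with 714.

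At the other end, the 5 lowest scores were 102 at Tmem185b, 104 at 2010109K11Rik, 105 at Gm7502, 107 at Gm16061 and 108 at Gm15770. Of these, Gm7502 and Gm16061 are copies of Rps2, so that copies of this gene stood both among the 20 highest and among the 5 lowest. The only polymorphic pseudogene, Cdk3-ps, a cyclin-dependent kinase gene, scored 246 with no repeated 36-mer. Its peak had a CpG observed-to-expected ratio of 0.225. This ratio is the number of CpGs divided by the number expected from the C and G content.

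The peaks covered much of the pseudogenes. In 140 of 237 members (59.1%, 52.5 to 65.4%) the whole gene lay inside the peak, beside 106 of 2882 (3.68%, 3.02 to 4.43%) of peaks at protein-coding genes and 47 of 216 (21.8%, 16.4 to 27.9%) of those at non-coding RNA genes. This share depends on the length of the gene, which was not compared between the kinds of genes. Peaks at protein-coding genes had a median width of 1440 bp. The median member was 1271 bp wide (interquartile range 1032 to 1771), and its midpoint lay 202 bp downstream of the TSS (median of the signed distance; interquartile range −22.5 to 362). The midpoint was downstream of the TSS in 174 members or 73.4%, and in 2097 or 72.8% of peaks at protein-coding genes. That 233 members lay within 1 kb of their TSS is no finding, as the deposited list holds peaks named after start sites.

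Most members lay outside protein-coding genes. The midpoint was outside every coding gene in 182 members (76.8%, 70.9 to 82.0%), in an intron in 45 (19.0%) and in an exon in 10 (4.22%). Intronic examples were Gm4604 in Sumf1, Gm6433 in Sdk1 and Gm16061 in Por. Among peaks at protein-coding genes, 444 or 15.4% (14.1 to 16.8%) lay outside coding genes by the same count, and among those at non-coding RNA genes 90 or 41.7% (35 to 48.5%). These differences follow in part from the rule, which sorts peaks by the type of the gene with the nearest TSS. The share of all annotated pseudogenes that lie outside coding genes was not counted.

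Repeated sequence was more frequent at pseudogenes than at the other peaks. The median share of 36-mers that occurred more than once in mm9 was 47.2% in the 237 members (interquartile range 23.6 to 79.3%) and 0% both at protein-coding genes and at non-coding RNA genes. At least 50% of the 36-mers were repeated in 111 members (46.8%, 40.3 to 53.4%), in 103 of 2882 peaks (3.57%) at protein-coding genes and in 28 of 216 (13%, 8.79 to 18.2%) at non-coding RNA genes. Any repeated 36-mer was found in 217 members (91.6%), in 28.1% of peaks at protein-coding genes and in 46.3% of those at non-coding RNA genes. No 36-mer was repeated in 20 members (8.44%, 5.23 to 12.7%). In 18 members not a single 36-mer was unique, so that a perfectly matching read of this length could not be assigned to them rather than to another copy. For reads with several alignments only the best was kept in the processing, and what share of the reads at these peaks came from other copies was not tested. Since pseudogenes are copies of other genes, the differences in repeated sequence follow in part from the rule. The share of repeated 36-mers over all annotated pseudogenes was not counted.

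Shared sequence between peaks followed the same line, and here too the difference follows in part from a rule that picks gene copies. By the count given above, 150 members (63.3%, 56.8 to 69.4%) shared sequence with another peak, beside 10.2% of all peaks, 155 of 2882 (5.38%, 4.58 to 6.27%) at protein-coding genes and 35 of 216 (16.2%, 11.6 to 21.8%) at non-coding RNA genes. The median score was 340 in these 150 members and 290 in the other 87. In the other 3099 peaks of the list the medians were 315 for 191 peaks that share sequence and 220 for 2908 that do not. The 87 members without shared sequence thus had a median above that of the 2908 other such peaks, with interquartile ranges of 167 to 416 and 152 to 333.

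**Figure D2:**
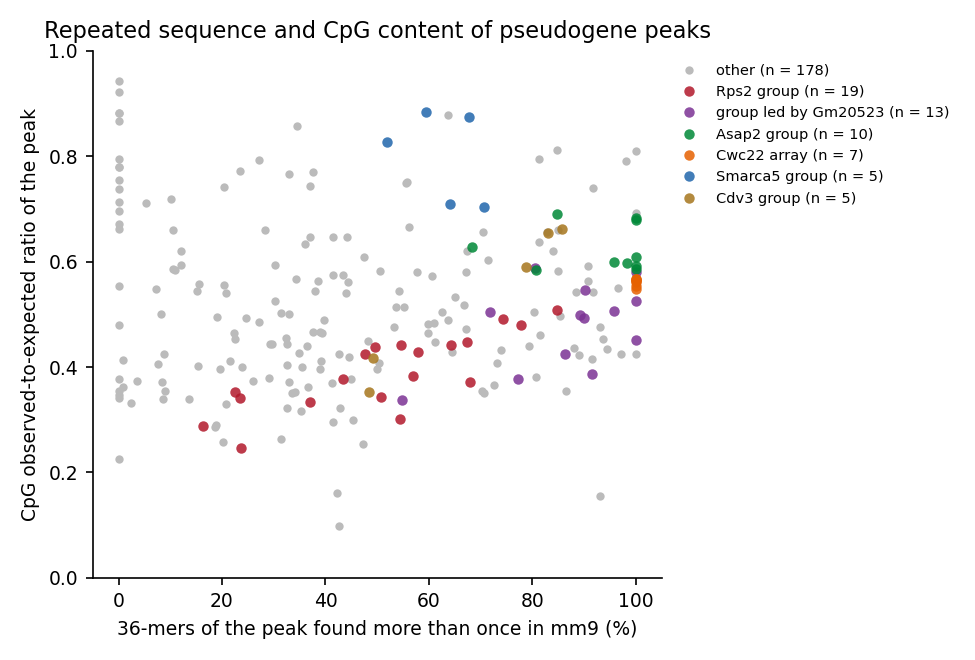
Share of repeated 36-mers (horizontal, in percent) and CpG observed-to-expected ratio (vertical) of each of the 237 peaks at pseudogene start sites, with 6 groups of peaks that share sequence in colour. The 7 peaks of the Cwc22 array sit together at 100%, the Smarca5 copies have ratios above 0.7 and the Rps2 group spreads from 16.4% to 84.7% repeated 36-mers.

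The repeats were more frequent in the pseudogenes than beside them. In 182 members with at least 200 36-mers both inside and outside the annotated gene, the median share repeated was 58.3% inside and 23.7% outside, and it was higher inside in 114 of 182. For the CpG observed-to-expected ratio, 195 members had 200 bp or more on each side of the boundary, with medians of 0.54 inside and 0.44 outside and a higher value inside in 118. Inside and outside belong to the same peak and are no independent measurements.

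Members were poorer in CpGs than peaks at coding genes. The median CpG observed-to-expected ratio was 0.499 in members (interquartile range 0.405 to 0.602), 0.737 at protein-coding genes (0.593 to 0.841) and 0.489 at non-coding RNA genes (0.368 to 0.699). The median GC content was 52.7% in members, 62.7% at protein-coding genes and 57.7% at non-coding RNA genes, so members had the lowest GC content of the 3 but a CpG ratio close to that of the non-coding RNA group. Within the members, the score varied little with either quantity, with a Spearman's rho of 0.07 for the CpG ratio and 0.14 for the share of repeated 36-mers over 237 peaks of 1 library, given as a description only.

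The view from the annotation asks which pseudogenes had a peak at all. Of 5209 annotated pseudogenes, 252 had a midpoint of a peak at most 1 kb from a TSS (4.84%, 4.27 to 5.46%). The same count gave 14.2% of protein-coding genes and 10.2% of annotated genes of any type. The annotation of start sites from which the list was drawn is not given in the sources used here, so here and in every later count a gene without a peak is one without a listed peak, and it may be one that could not have been listed. Pseudogenes with a peak were richer in CpGs around the start than those without, with a median ratio over 1000 bp of 0.522 (interquartile range 0.404 to 0.647) in the 252 and 0.212 (0.123 to 0.340) in the other 4957. Since the rule for members used position only, this difference was not built into the choice, but it rests on 1 library and neighbouring copies are not independent.

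The share of pseudogenes with a peak was larger in each step of CpG content. It was 7 of 2349 (0.298%, 0.12 to 0.613%) below a ratio of 0.2, 53 of 1890 (2.80%, 2.11 to 3.65%) from 0.2 to 0.4, and 112 of 734 (15.3%, 12.7 to 18.1%) from 0.4 to 0.6. It was 43 of 158 (27.2%, 20.4 to 34.9%) from 0.6 to 0.8 and 37 of 78 (47.4%, 36 to 59.1%) at 0.8 or more. No interval overlapped with that of a neighbouring step.

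Set beside protein-coding genes of like CpG content at the outermost start, pseudogenes had a peak less often at low ratios and more often at high ones. A gene counted through a peak at any of its TSSs, whereas the ratio was taken at the outermost start alone. A gene with several TSSs can thus have its peak away from the sequence that gave the ratio, and how much this alters the comparison was not tested. Below 0.2 and from 0.2 to 0.4, 1.08% (0.813 to 1.42%) and 5.43% (4.75 to 6.17%) of protein-coding genes had a peak. From 0.4 to 0.6 the values were close, 13.3% (12.2 to 14.5%) for coding genes. From 0.6 to 0.8 and above, coding genes reached 18.1% (17.1 to 19.2%) and 31.6% (30.2 to 32.9%), below the intervals of the pseudogenes.

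Leaving out pseudogenes within 1 kb of a coding TSS, the share was 14.2% (11.7 to 17.1%) from 0.4 to 0.6, 29.8% (22.1 to 38.4%) from 0.6 to 0.8 and 23 of 45 (51.1%, 35.8 to 66.3%) at 0.8 or more. Leaving out, in both kinds of genes, those whose only peaks share sequence, it was 38 of 660 (5.76%, 4.11 to 7.82%), 16 of 131 (12.2%, 7.15 to 19.1%) and 20 of 61 (32.8%, 21.3 to 46%) for pseudogenes, and 11.9% (10.8 to 13%), 17.6% (16.6 to 18.6%) and 31% (29.7 to 32.4%) for protein-coding genes. In this count the intervals of both kinds of genes overlapped at 0.6 or more, and pseudogenes had the lower share from 0.4 to 0.6. Only genes with a peak are left out in this way, and they were a larger part of the pseudogenes with a peak than of the coding genes with one, so the shares of pseudogenes had to fall more.

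**Figure D3:**
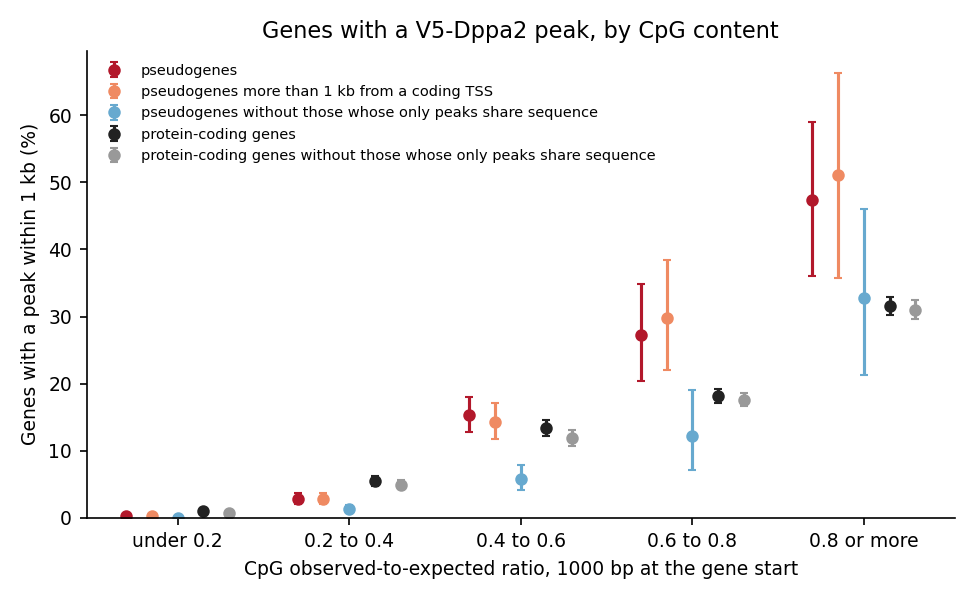
Share of genes with a V5-Dppa2 peak whose midpoint is within 1 kb of a TSS (in percent) by the CpG observed-to-expected ratio of the 1000 bp at the gene start, with exact 95% intervals as bars. Points are all pseudogenes (red), pseudogenes more than 1 kb from a coding TSS (orange), pseudogenes without those whose only peaks share sequence (blue), and protein-coding genes with (black) and without (grey) those whose only peaks share sequence, and in every series the share is larger at each higher step.

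Closeness to the coding gene went the same way. A protein-coding transcript at another locus matched 3980 of the 5209 pseudogenes at 80% identity or more over at least 50% of the pseudogene transcript, and 201 of the 237 members (84.8%). The share with a peak was 0.924% (0.340 to 2.00%) at 80 to 85% identity, 2.52% (1.57 to 3.82%) at 85 to 90%, 3.83% (2.72 to 5.22%) at 90 to 95% and 9.37% (7.94 to 11.0%) at 95% or more. The median identity of the 201 matched members was 97.1%, and 138 of them had 95% or more. Identity and CpG content are linked, since loss of CpGs is itself divergence, and their parts were not separated.

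Pseudogenes whose coding match had a peak of its own more often had one too. Where the match itself had a peak by the same count, 99 of 495 pseudogenes had a peak (20%, 16.6 to 23.8%), and where it had none, 107 of 3485 (3.07%, 2.52 to 3.70%). Counted by coding gene, 43 of 123 with a pseudogene at a peak had a peak themselves (35%, 26.6 to 44.1%), beside 179 of 1679 (10.7%, 9.22 to 12.2%) of those with pseudogenes of which none had a peak. In near-identical pairs reads can align to either copy, and the part this plays was not tested.

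Of the coding genes with at least 3 members, Rps2 led with 15 peaks. Its 28 pseudogenes lie dispersed over the genome, and the 15 with a peak were on 12 chromosomes. The scores of the 15 peaks ran from 105 at Gm7502 to 717 at Gm5786 with a median of 342. Among the others were Rps2-ps13 with 657, Gm6311 with 545 and Gm12366 with 525 at the upper end and Gm16061 with 107 and Gm12109 with 117 at the lower.

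Copies of Rps2 with a peak had kept more of its CpGs. Of the CpGs of the Rps2 coding sequence that could be aligned in a copy, those with a peak had kept a median of 80% (range 43.2 to 97.4%, n = 15) and those without 33.3% (0 to 61.5%, n = 13). In 11 of the 15 the share was above that of every copy without a peak, so the groups overlapped only through Gm7638, Gm12109, Gm7502 and Gm7860. Rps2-ps13 had kept 37 of 38 CpGs, Gm11687 36 of 38 and Gm12366 34 of 38, whereas Gm15653 without a peak had kept 15 of 38, with 18 now TpG or CpA. Gm7860, whose peak scored 342, had kept 16 of 37, so that a peak was also found on a copy poor in the original CpGs. The identity to the coding sequence had a median of 97.7% (94 to 99.4%) in the first group and 91.6% (89.8 to 94.5%) in the second. The stretches of sequence printed above are part of these counts. The coding gene Rps2 had a peak of its own. In the 19 members of the Rps2 group the median share of repeated 36-mers was 54.3% (range 16.4 to 84.7%). Reads from Rps2 or another copy could thus align to these copies, and the part this plays was not tested. CpGs kept and identity differed together, and their parts were not separated.

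**Figure D4:**
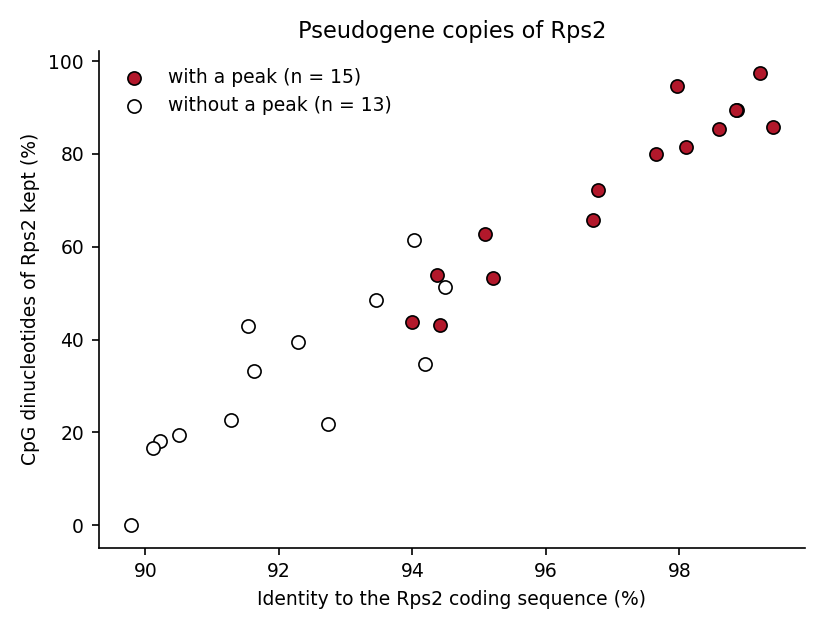
Identity to the Rps2 coding sequence (horizontal, percent) and share of its CpG dinucleotides kept (vertical, percent of those aligned) for the 28 pseudogene copies of Rps2, 15 with a V5-Dppa2 peak within 1 kb (red) and 13 without (open). Copies with a peak lie between 94% and 99.4% identity, and the 11 copies with the most CpGs kept above 61.5% all have a peak.

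A like order was seen in most coding genes that had both kinds of copies. The measure here is the CpG ratio of 1000 bp at the annotated start, not the CpGs kept at aligned positions. There were 22 coding genes with at least 2 pseudogenes with a peak and 2 without, Rps2 among them. In 19 of the 22 the median CpG ratio was higher in copies with a peak, and 19 had a higher identity. Another of the 22, Gm8841, is not independent of Rps2, as its copies with a peak share sequence with the Rps2 group. Rpl15, Tlk2 and Gm11678 had a lower CpG ratio in copies with a peak. For Asap2, which encodes a GTPase-activating protein, the ratio was 0.769 to 0.891 in 10 copies with a peak and 0.0851 to 0.154 in 6 without, with no overlap. The median GC content at these starts was 68.1% and 47.95%, and whether the annotated starts are corresponding sequence was not tested. For Odc1, the ornithine decarboxylase gene of polyamine synthesis, the CpG ratio was 0.134 to 0.672 in 4 copies with a peak and 0.147 to 0.367 in 5 without. These groups overlapped through Gm14782, a copy of low ratio and the highest score among the 4, 714. The midpoint of that peak lay 979 bp from the TSS of Gm14782.

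**Figure D5:**
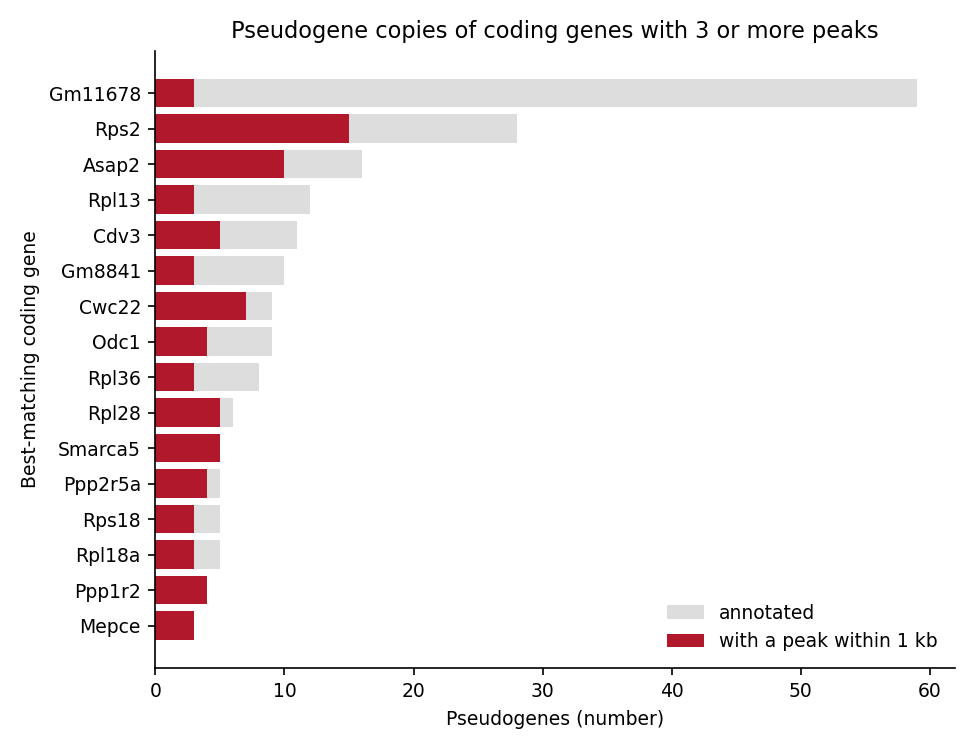
Number of annotated pseudogenes (grey) and of those with a V5-Dppa2 peak whose midpoint is within 1 kb of a TSS (red) for each best-matching coding gene with 3 or more peaks. All copies of Smarca5, Ppp1r2 and Mepce had a peak, beside 15 of 28 for Rps2 and 3 of 59 for Gm11678.

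In several small groups every copy had a peak. Smarca5, the gene of a chromatin remodelling ATPase of the ISWI type, had 5 of 5, with scores of 540 at Gm13034, 360 at Gm13231, 163 at Gm13136, 147 at Gm13135 and 119 at Gm13140. Ppp1r2, which encodes an inhibitor of protein phosphatase 1, had 4 of 4, with 791 at Gm6435, 670 at Gm5972, 595 at Gm7749 and 320 at Gm5490 on 4 chromosomes. Mepce, the methyltransferase that caps 7SK RNA, had 3 of 3, with 544 at Gm15105, 365 at Gm14309 and 253 at Gm14310. The coding genes Smarca5 and Ppp1r2 had a peak of their own and Mepce had none. Ppp2r5a, for a regulatory subunit of protein phosphatase 2A, had 4 of 5, and the copy without a peak, Gm13169, had a CpG ratio of 0.983, above those of the other 4, and 96.4% identity.

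Some other groups had no or few listed peaks, to be read against the 5.18% (4.51 to 5.91%) of all 3980 matched pseudogenes that had one. None of the 52 copies of Hmgb1, a chromatin protein gene, had a peak. The same held for the 15 of Gapdh and the 14 of Ldha, both genes of glycolysis. Each of these groups, Hmgb1 included, is too small to tell 0 from the overall share. Of 59 copies whose best match was Gm11678, itself a coding gene of a single exon, 3 had a peak, or 5.08%, close to the overall share. Among ribosomal protein genes, Rpl17 with 26 copies, Rpl3 with 19 and Rpl9 with 18 had none, and Rpl29 had 1 of 26, counts likewise too small to tell from the overall share.

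As a list, ribosomal protein genes had 48 members from 17 genes, with a median score of 239. Of their 526 matched pseudogenes 48 had a peak (9.13%, 6.81 to 11.9%), beside 206 of all 3980 matched ones. Without the copies of Rps2 it was 33 of 498 (6.63%, 4.6 to 9.18%), so that the excess over all matched pseudogenes rested largely on that gene. Where only coding genes with more than 1 exon could be the match, the ribosomal list held 59 members. The counts by best match thus leave out some ribosomal copies that match a coding gene of a single exon better. The list of other abundant messenger RNAs had 4 of 193 (2.07%, 0.568 to 5.22%), among them 2 of 7 copies of Hmgn1. The list of pluripotency and Dppa genes had 1 of 15, Gm15620, a copy of Dppa3, the gene of the oocyte and germ cell protein Stella, with a score of 386, 0.860% repeated 36-mers and a midpoint in an intron of Dmgdh. The vector held Dppa2 cDNA, which the control line lacked, and none of the 4 pseudogene copies of Dppa2 had a peak.

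A tandem array on chromosome 2 held 7 members with identical sequence at the start. Gm13698, Gm13693, Gm13695, Gm13696, Gm13694, Gm13697 and Gm13691 lie in this order between 83795847 and 83833434, on the plus strand, with their starts 5810 bp apart at each step. Their best coding match at another locus was Cwc22, a splicing factor gene, at 97.8% identity. From 500 bp before the start to 1000 bp after it all 7 had 1 identical sequence, and all of their 36-mers were repeated. Their scores were 495, 511, 634, 610, 616, 656 and 509 in the order above, a mean of 576 ± 68.1 (SD over 7 copies, which are not replicates). How the reads divide among the copies cannot be told, as no 36-mer belongs to 1 of them alone. The 2 other pseudogene copies of Cwc22 had no peak and CpG ratios of 0.0714 and 0.0939, beside 0.456 in the array.

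A stretch of 2.07 Mb on chromosome 4, from 145045428 to 147114307, held 16 members among 17 listed peaks. Its bounds are the outer ends of member peaks, at Gm13223 and Gm13136, so the counts in it follow in part from that choice. These were copies of Smarca5 (5), Cdv3 (5), Ppp2r5a (3), Tlk2 (2) and Rpl28 (1), repeated along the stretch. The scores of the Cdv3 copies were 469 at Gm13238 and at Gm13241, 344 at Gm13146, 259 at Gm13223 and 194 at Gm13036. Their CpG ratio over the peak was 0.663, 0.655, 0.591, 0.416 and 0.353, and thus had the same order as the score. In this order the midpoints lay at −129, −152, −119, 344.5 and 370.5 bp from the start. The peaks thus cover different parts of the copies. In the Smarca5 copies the CpG ratio was 0.884, 0.874, 0.704, 0.709 and 0.828 from the highest to the lowest score, and did not follow the score. Of the 46 annotated pseudogenes in this stretch or within 5 kb of it, 16 had a peak and the others had none.

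A further group held 13 members that share sequence but not the source gene. It comprised 26 peaks on 12 chromosomes, and 4 of its 13 pseudogenes matched a coding gene, each a different one. In 12 of 13 the midpoint was upstream of the pseudogene start, with a median signed distance of −535.5 bp over the 13, the start lay inside the peak in 4, and in 8 no base of the pseudogene lay inside the peak. Gm14497 lay wholly inside its peak, and the peak at Gm20413 was downstream of the start, inside a long gene. Its 3 highest scores were 1929 at Gm20523, 1143 at Gm13768 and 960 at Gm5843, and its 3 lowest 253 at Gm15102, 175 at Gm15278 and 150 at Gm14355. The median 36-mer of the peak at Gm20523 occurred 1859 times in mm9 and that at Gm13768 1824 times, while that at Gm14497, with a score of 403, occurred 2 times.

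Another such group of 17 peaks held 6 members, Gm10780 with 1835, Olfr268-ps1 with 1623, Gm11235 with 648, Gm12669 with 337, Gm15225 with 292 and Gm5942 with 135. The 5 of them with a coding match had 5 different ones. The chromosome 12 group of Asap2 copies held 28 peaks, 10 of them at pseudogenes, with scores from 145 at Gm11055, 221 at Gm4109 and 258 at Gm10476 to 445 at RP23-32K16.2, 508 at RP23-71I22.3 and 662 at RP23-71I22.1. The group of Rps2 held 28 peaks, 19 of them at pseudogenes and 9 at protein-coding genes. Its members included Rps2-ps10 with 750 and Gm6433 with 662, whose best matches were Gm8841 and Gm6139, coding genes of a single exon.

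More than 50% of the peaks on chromosome X were at pseudogenes. It had 44 listed peaks, and 24 of them (54.5%) were at pseudogenes, beside 11.4% of the peaks on chromosome 2 and 14% on chromosome 4. The pseudogenes of chromosome X themselves had a peak less often than those of autosomes, 24 of 1145 (2.10%, 1.35 to 3.10%) and 228 of 4063 (5.61%, 4.92 to 6.36%). Single autosomes ranged from 0.985% (2 of 203) on chromosome 14 to 18.6% (16 of 86) on chromosome 12, and chromosome 7 had 2.11% (7 of 331). Chromosome X thus lay inside the range of the autosomes. The median CpG ratio of annotated pseudogenes was 0.179 on chromosome X and 0.235 on autosomes. Of the 24 members on chromosome X, 19 shared sequence with another peak, and 8 belonged to the group led by Gm20523.

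Members without any repeated 36-mer were few, and many were genes whose type differs between annotations. Of the 20 without a repeated 36-mer, 12 are protein-coding by name in the later RefSeq annotation, 3 of them under a name that a coding gene in the mm9 annotation has as well. Their median score was 223 (range 102 to 1436), close to that of peaks at protein-coding genes, and their median CpG ratio 0.725. The 10 highest of those without a coding TSS within 1 kb were Kbtbd13 with 1436, Abl1 with 1183, Zdhhc25 with 556, Gm15476 with 546, 4930527J03Rik with 377, Cebpd, a C/EBP transcription factor gene, with 280, Kctd12 with 262, Cdk3-ps with 246, Gm12260 with 209 and Gm8091 with 156. Of these, Gm15476, Cdk3-ps and Gm8091 are pseudogenes in the later annotation as well, so that peaks without any repeated 36-mer at genes that both annotations call pseudogenes were few. The cut is strict, and only 2 of the 167 processed members passed it. Under 10% of the 36-mers were repeated in 33 members, with a median score of 280 and a median CpG ratio of 0.547.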

How the data were processed

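Peaks in the deposited list carry a score that the authors made with MACS 1.4.2, −10 times the log10 of its p-value for ChIP over control. Before that the authors removed low-complexity reads, aligned to mm9 with Bowtie 0.12.7 (seed of 36 bases, at most 2 mismatches, best alignment kept) and removed duplicates; peaks stayed where they had 100 reads or more and a p-value no higher than 1e-10. The submitters' processing notes also name Picard 1.81. The midpoint of each peak was set against every TSS in GENCODE M1. Repeated 36-mers were counted over both strands of mm9, shared sequence was searched with megablast and coding matches with blastn (BLAST 2.17.0), in Python 3.11.15 with numpy 2.4.6, pandas 2.3.3, scipy 1.17.1, pysam 0.24.0, biopython 1.88, networkx 3.6.1, numba 0.67.0 and matplotlib 3.10.9. The search for the nearest TSS, with its rule for ties, and the count of repeated 36-mers were tested on simulated data. Named were the 20 highest and 5 lowest scores, the 3 highest and 3 lowest of groups with 5 or more members, the polymorphic pseudogene, coding matches with 3 or more members, matches to pluripotency genes and the 10 highest in unique sequence; other copies were named as examples after their values were seen. The members and lists were chosen with earlier results of these data known. With 1 library no test was possible.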

Additional observations from a re-analysis of the deposited data

How the results depend on the processing

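No paired analysis was possible because each condition has 1 library, and for the same reason no replicate could be left out. Of the alternatives tried, 20 left the value inside its 95% interval, or a count within 1.5 times, and 12 moved it. With a score of at least 200, 3.42% of annotated pseudogenes had a peak, the median score was 402, and the ribosomal list fell from 48 to 29 members. A window of 500 bp gave 3.88% of pseudogenes and one of 5 kb gave 6.07%, and a coding TSS lay within 5 kb in 21.1% of members. Without peaks that share sequence, the median CpG ratio was 0.452 and the median share of repeated 36-mers 22.4%, and with 50-mers it was 35.5%. Shared sequence was found in 48.1% of members at 95% identity and in 48.5% over at least 600 bp, and a coding match in 76.4% at 90% identity. A stricter score or match or another window changes the counts and shares by construction, and the cause of the lower CpG ratio without peaks that share sequence was not tested. The settings for the ribosomal list, the list without genes that RefSeq calls coding (219 members) and the CpG steps without genes at shared sequence or coding start sites were chosen after seeing the data. Peak heights, summits and control coverage were not analysed here, so the number of reads behind a score is unknown.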
